A study of Mus musculus with 21 samples.

Results

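The laminin, nidogen and heparan sulfate proteoglycan mRNAs of the basement membrane were examined here: 10 genes of the 23827 rows in each expression table, namely the laminin alpha chain genes Lama1, Lama2, Lama4 and Lama5, the beta chain genes Lamb1 and Lamb2, the gamma chain gene Lamc1, nidogen 1 (Nid1), perlecan (Hspg2) and agrin (Agrn). Each symbol had 1 row, so all 10 were found, and all 10 had reads in every library, the fewest being 272. The genes were chosen by family and with earlier values of these libraries in view, above all the ribosome-bound to total RNA ratios of Hspg2 and Lama5. The values of that contrast are therefore a description, and the counts past a threshold in it are printed beside the share of all rows with nothing read from them. The earlier values in view are not recorded in full. The choice of genes may therefore also bear on the counts and adjusted p-values of the other comparisons, those with endothelial cells included.

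The basement membrane is a thin sheet of extracellular matrix under epithelia and around vessels, muscle, nerve and the surface of the brain. A laminin is a trimer of an alpha, a beta and a gamma chain, and the alpha chain largely sets which receptors it binds. Nidogen links the laminin network to type IV collagen, and perlecan and agrin are large heparan sulfate proteoglycans that anchor in it and bind growth factors and dystroglycan. In vessels the sheet is made by the endothelium together with pericytes and, in the brain, astrocytes. Its laminins carry mostly the alpha4 and alpha5 chains, whereas alpha1 is typical of early embryonic, meningeal and epithelial membranes and alpha2 of muscle and nerve.

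The 21 libraries came from mouse embryos at embryonic day 14.5 that carried the conditional mCherryTRAP allele in the Rosa26 locus, which was made from a single targeted embryonic stem cell clone. After Cre recombination a ubiquitous promoter drives ribosomal protein L10a fused to mCherry, and ribosomes with their mRNAs are pulled down with beads against the tag. There were 7 groups of 3 libraries. Sox2Cre+/-, active in all derivatives of the epiblast, gave libraries of the kidney and of the forebrain with part of the diencephalon, from unfractionated RNA (the transcriptome) and from RNA pulled down with the tag (the translatome, here also called bound RNA). Cdh5CreERT2+/- embryos, whose Cre is driven by the VE-cadherin promoter and was switched on by tamoxifen given to the dam by gavage, gave the ribosome-bound RNA of brain and of kidney endothelial cells (ECs). Emx1Cre+/- embryos gave that of the Emx1-lineage, the dorsal telencephalic neural lineage. The study's sample list gives pooled brains or kidneys for every library, and transcriptome and translatome libraries of the same number came from the same tissue sample. No tamoxifen-treated organ reference was among the libraries, so treatment and Cre driver cannot be told apart from the cell type in the EC comparisons.

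Between 21760652 and 79231692 reads were counted per library, the kidney translatome being the shallowest (21760652 to 24605124). The labels of the EC groups held against marker genes. All 12 endothelial markers were higher in both EC groups than in their organ translatomes, with summed RPKM (reads scaled by transcript length and library size) of 2986 to 3087 against 155 to 177 in brain and of 2553 to 2989 against 455 to 491 in kidney. The EC libraries were not pure. In brain ECs 10 neural markers summed to 732 to 901 RPKM against 2018 to 2085 in the forebrain translatome. Of these, 8 were lower and 1 (Nes) higher. Nes alone had a mean of 373 RPKM in brain ECs, so the sum overstates the level of the other neural markers. In kidney ECs 10 kidney epithelial markers summed to 97.2 to 104.6 RPKM against 430 to 461, with 8 lower and 2 higher. Blood and macrophage markers were lower for 2 of 7 tested in brain ECs and for 6 of 7 in kidney ECs, with none higher. The EC groups and the Emx1-lineage group were each sequenced on a run of their own, so run and group cannot be told apart there. In bulk samples, fewer cells of a type and less RNA per cell cannot be told apart.

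Across the groups the members ran from 0.97 to 1510 RPKM in the group means, a scale that is comparable between genes because it is per length. Agrn was the most abundant member in 6 of the 7 groups, and Lama2, the muscle and nerve chain, the least abundant in every group. Agrn reached 1510 ± 79.0 RPKM in kidney ECs (mean ± SD of 3 libraries, as throughout) and Hspg2 1190 ± 57.7, whereas Lama2 ran from 0.97 ± 0.14 in the Emx1-lineage to 14.4 ± 4.82 in kidney ECs. The 10 mRNAs together summed to 214 to 216 RPKM in the brain transcriptome, 195 to 226 in the brain translatome, 140 to 152 in the Emx1-lineage and 1287 to 1466 in brain ECs. In kidney they summed to 561 to 611 RPKM in total RNA, 1145 to 1285 in the translatome and 3841 to 4255 in ECs. The libraries of the 2 EC groups thus lay above every whole-organ library of the same organ. The levels in each library are drawn by member and group.

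**Figure D1:**
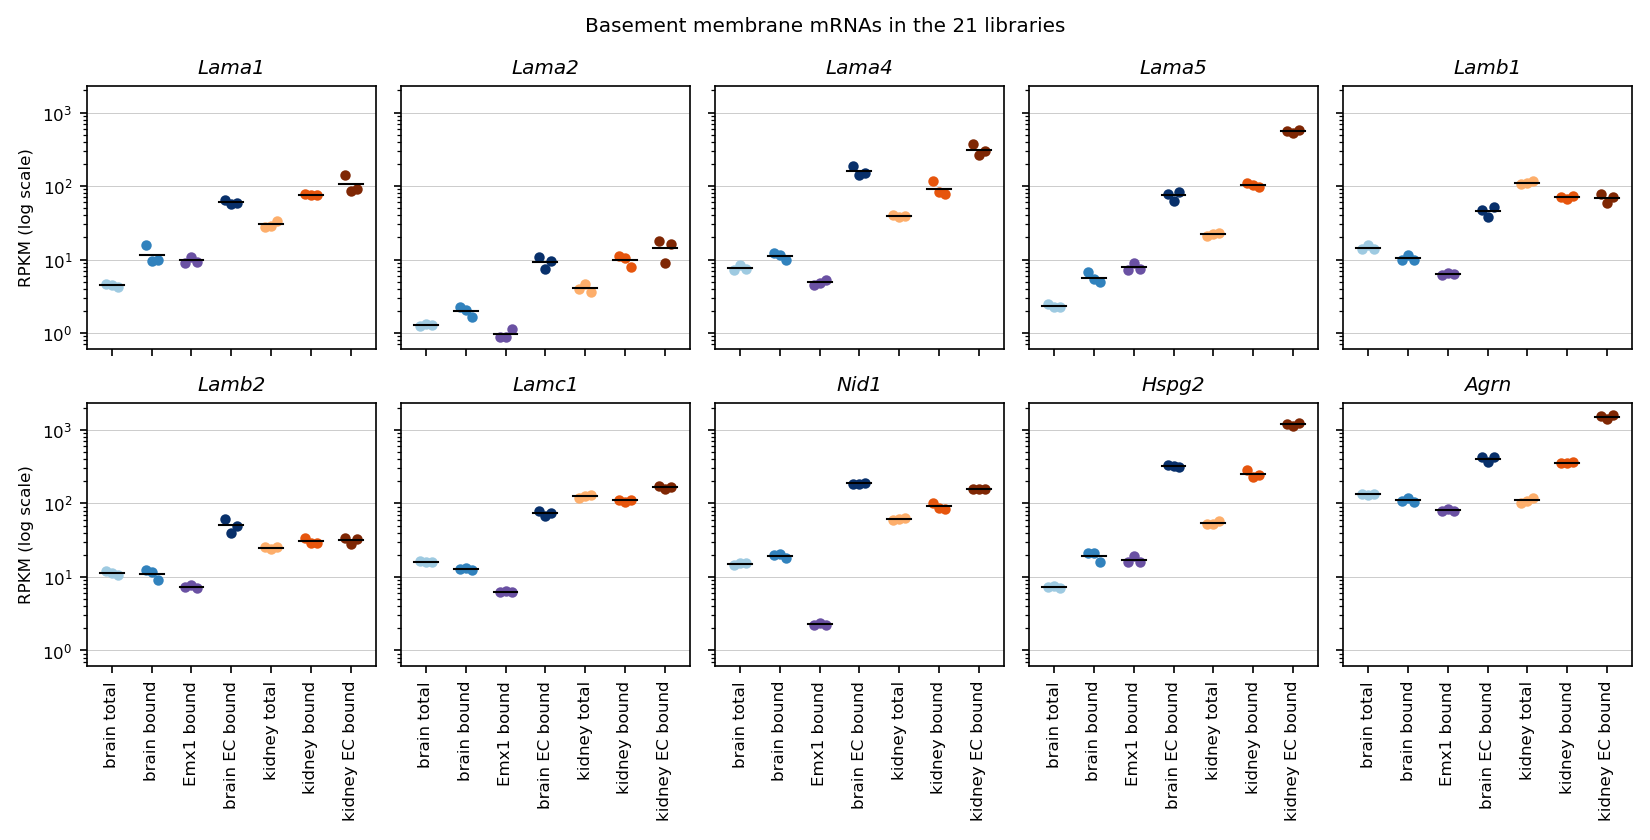
RPKM of the 10 basement membrane mRNAs on a log axis in the 21 libraries, with a point for each library and a bar for the mean of the 3 libraries of a group. Kidney ECs hold the highest level of 7 members, Lamb2 and Nid1 are highest in brain ECs and Lamb1 in kidney total RNA, while the Emx1-lineage lies lowest for 7 of the 10.

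Lama5 and Hspg2 moved together most closely. Their bound to total RNA ratios were in view when the genes were chosen, so their correlation is a description. Over the 21 libraries the Pearson correlation of their log2(RPKM + 1) values was 0.99, the highest of the member pairs, followed by Lama2 with Lama4 and Lamb1 with Lamc1 (0.98 each), and the lowest was 0.57 for Lamb1 with Agrn. These correlations describe 21 libraries that fall into 7 groups and share their organs and runs, so they mostly restate differences between groups. The sequences just upstream of the genes of the closest pair, and of Agrn, the other proteoglycan, are shown with the GC box (GGGCGG on either strand), the core of the sites that Sp1-type factors bind, in capitals. They are RefSeq promoter windows on GRCm38.p6, cut to the bases before the annotated start of the gene and read on the strand of the gene: chr2:180225860-180226109 for Lama5 (minus strand), chr4:137468553-137468768 for Hspg2 (plus strand) and chr4:156197489-156197738 for Agrn (minus strand).
Lama5: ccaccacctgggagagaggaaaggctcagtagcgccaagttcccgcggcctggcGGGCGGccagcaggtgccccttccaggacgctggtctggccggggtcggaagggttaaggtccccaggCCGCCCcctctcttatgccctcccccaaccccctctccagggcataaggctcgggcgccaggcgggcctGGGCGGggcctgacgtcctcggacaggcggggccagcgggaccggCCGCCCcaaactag
Hspg2: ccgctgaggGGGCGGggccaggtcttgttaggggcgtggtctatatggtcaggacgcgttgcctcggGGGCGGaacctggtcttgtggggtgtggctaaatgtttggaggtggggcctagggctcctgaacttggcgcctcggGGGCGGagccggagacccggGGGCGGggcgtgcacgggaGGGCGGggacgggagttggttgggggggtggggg
Agrn: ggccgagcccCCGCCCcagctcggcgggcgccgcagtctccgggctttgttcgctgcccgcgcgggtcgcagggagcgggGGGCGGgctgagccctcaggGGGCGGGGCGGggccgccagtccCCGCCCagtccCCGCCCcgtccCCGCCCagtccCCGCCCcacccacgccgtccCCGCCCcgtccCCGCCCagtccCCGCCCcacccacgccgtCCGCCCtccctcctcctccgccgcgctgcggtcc
The printed stretches held 4, 5 and 12 GC boxes, matches that overlap each other included, and no TATA box (TATAAA, either strand). Of 32851 windows of 250 bases, 32.7% held at least 1 GC box and 12.4% a TATA box. Of the other members with a window at the start of the gene, Lamb1 had 2 GC boxes, Nid1 had 1 and Lamb2 had 0. A match is a string of letters and was not tested as a binding site.

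Ribosome association was taken as the log2 fold change of translatome over transcriptome libraries, which is a description here. In the brain the largest values belonged to perlecan and to the alpha1 and alpha5 chains. Hspg2 stood at 7.28, 7.43 and 7.01 RPKM in brain total RNA and at 21.0, 21.1 and 15.9 in ribosome-bound RNA, a log2 fold change of 1.44 (SE 0.09). Lama1 went from 4.72, 4.47 and 4.29 to 15.8, 9.60 and 9.72 RPKM (1.41, SE 0.14), its first bound library standing apart from the other 2, and Lama5 from 2.48, 2.30 and 2.26 to 6.80, 5.36 and 4.93 (1.31, SE 0.10). For these 3 genes every bound library lay above every total RNA library. Lama2 (0.65, SE 0.10), Lama4 (0.59, SE 0.08) and Nid1 (0.39, SE 0.06) were also higher in bound RNA, without overlap of the groups. The chains that most laminin trimers share were not: Lamb1 stood at -0.44 (SE 0.07), Lamc1 at -0.30 (SE 0.05) and Lamb2 at -0.01 (SE 0.09), and the 2 groups overlapped for Lamb2 alone. Agrn stood at -0.25 (SE 0.06), with 131 to 136 RPKM in total and 103 to 119 in bound RNA. At an adjusted p of 0.001, a count that the choice of genes bears on, 6 members lay past the threshold as higher and 2 as lower, beside 18.6% of all 19446 rows higher and 18.5% lower. The member median was 0.49 and that of all rows -0.01. With the tissue sample as a block, the count of lower members included Agrn, at -0.26.

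In the kidney the order was similar at the top, with Agrn added to it. Hspg2 stood at 53.3, 51.9 and 57.3 RPKM in kidney total RNA and at 289, 231 and 244 in bound RNA, a log2 fold change of 2.23 (SE 0.10). Lama5 went from 21.2, 22.5 and 23.2 to 111, 103 and 96.9 RPKM (2.22, SE 0.07), and Agrn from 102, 108 and 120 to 359, 355 and 366 (1.71, SE 0.08). All bound libraries of these 3 genes lay above all total RNA libraries. Lama1 (1.34, SE 0.07), Lama2 (1.28, SE 0.13), Lama4 (1.23, SE 0.13) and Nid1 (0.58, SE 0.07) followed. Lamb1, at 108 to 117 RPKM in total and 66.3 to 73.3 in bound RNA, was lower (-0.67, SE 0.06), and Lamb2 (0.28, SE 0.06) and Lamc1 (-0.19, SE 0.06) lay nearer to 0. The count past the threshold, again one that the choice of genes bears on, was 7 higher and 1 lower, beside 14.9% and 15.8% of all 19336 rows. The member median was 1.26 and that of all rows -0.03. With the tissue sample as a block, the counts included Lamb2 (0.28) and Lamc1 (-0.19).

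In both organs the beta and gamma chains thus lay below Nid1, and the alpha chains and perlecan above it. Agrn lay among the former in the brain and among the latter in the kidney. The organs differed most for Agrn, at -0.25 in brain and 1.71 in kidney. Its total RNA stood at 134 ± 2.90 RPKM in brain and 110 ± 8.76 in kidney. A difference between the organs was not tested here. Sequencing run and RNA fraction overlapped in part. Within the run that both fractions shared, log2 ratios of mean RPKM were 1.41 for Hspg2, 1.20 for Lama5, 1.31 for Lama1 and -0.41 for Lamb1 in brain (3 bound libraries and 1 total), and 2.17 for Hspg2, 2.12 for Lama5, 1.73 for Agrn and -0.61 for Lamb1 in kidney (1 bound library and 3 total). Of 12 endothelial markers 6 were higher in the bound RNA of the brain (median 0.53) and 7 in that of the kidney (median 0.38), with none lower. The shares of all rows higher were 18.6% and 14.9%. Of 9 fibroblast and stromal markers 4 were higher and 2 lower in brain (median 0.003), and 2 higher and none lower in kidney (median 0.23). Of 8 pericyte markers 1 was higher and 1 lower in brain (median 0.22), and 3 higher and 2 lower in kidney (median 0.40). Their part in the member values was not tested.

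Members with longer proteins stood higher. By the GENCODE vM21 annotation of GRCm38, perlecan has 4383 amino acids on 97 exons (chromosome 4, 137468769 to 137570630), the alpha5 chain 3718 on 79 exons (chromosome 2, 180176373 to 180225859), the alpha2 chain 3118 and the alpha1 chain 3083, whereas agrin has 2034 (chromosome 4, 156165290 to 156197488), the beta1, alpha4, beta2 and gamma1 chains 1834, 1816, 1799 and 1607, and nidogen 1245. Across the 10 genes the Pearson correlation of protein length with the ribosome association was 0.81 in brain and 0.75 in kidney. These points are genes of related families, not replicates, and Hspg2 and Lama5, whose ratios were in view when the genes were chosen, are the members with the longest proteins, so the correlation is a description. For comparison, among 1588 mRNA rows of at least 5669 bases (the length of the shortest member) and 1 RPKM in brain total RNA, the median was -0.38 and 19.4% were above 0, and among 1519 such rows in kidney the median was -0.20 with 32.4% above 0. The part of length in the member values was not tested.

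**Figure D2:**
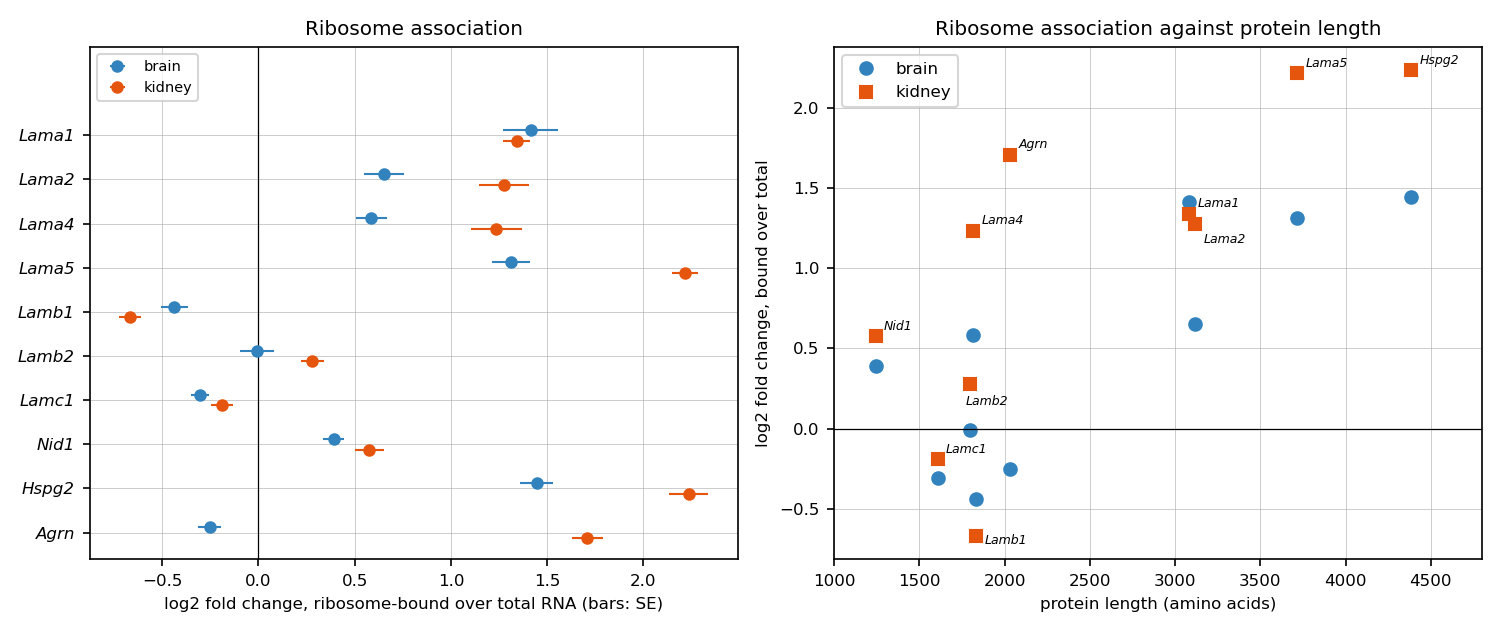
Left, log2 fold change of ribosome-bound over total RNA for the 10 mRNAs in brain and kidney, with bars for the standard error of the edgeR estimate from 3 against 3 libraries. Right, the same values against the length of the encoded protein in amino acids; Hspg2 and Lama5 lie at the upper right in both organs, and Lamb1 has the lowest value in both.

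Brain ECs were compared with the forebrain translatome to ask which members stood higher in the endothelium. All 10 were higher in ECs, beside 24.8% of the 19103 rows tested higher and 21.4% lower, and no brain EC library overlapped with a forebrain library for any of them. The choice of genes with earlier values in view may bear on the counts and adjusted p-values of this and the other EC comparisons. Perlecan had the largest value: 331, 324 and 316 RPKM in the 3 EC libraries against 21.0, 21.1 and 15.9, a 20.5-fold difference (log2 4.36, SE 0.13, adjusted p = 5.6e-12, edgeR quasi-likelihood test with Benjamini-Hochberg adjustment, as for all adjusted p-values here). Lama4, the vascular alpha chain, stood at 188, 142 and 150 RPKM against 12.3, 11.6 and 10.0 (log2 4.11, SE 0.12, adjusted p = 7.2e-12). Lama5, whose chain is also a vascular one, stood at 78.6, 63.5 and 82.4 against 6.80, 5.36 and 4.93 (log2 4.00, SE 0.14, adjusted p = 2.4e-11). These 3 and Nid1, at 183 to 192 against 18.0 to 20.6 RPKM (log2 3.55, SE 0.08), made up the upper end. Lamc1 (2.80), Lama1 (2.65), Lama2 (2.52), Lamb2 (2.48), Lamb1 (2.41) and Agrn (2.15) followed, with adjusted p-values between 5.7e-12 and 7.3e-09. Agrn was the least enriched although it was the most abundant member in brain ECs, at 402 ± 35.3 RPKM, and the forebrain translatome held 110 ± 7.70. The member median was 2.73 and that of all rows -0.01.

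Markers of other cell types than ECs also differed between the brain EC libraries and the forebrain translatome. Of 9 fibroblast and stromal markers 7 were higher in brain ECs than in the forebrain translatome and none lower, and they summed to 285, 190 and 216 RPKM in EC libraries 1, 2 and 3 against 124 to 143. Tcf21 was the single marker of the 9 with a mean under 1 RPKM in brain ECs. Foxc1, a transcription factor gene of the meninges and other mesenchyme, stood highest of the markers named at 2.78 (SE 0.10), and of the genes of fibrillar collagens and of decorin (Dcn), which fibroblasts make, Col3a1 stood at 1.21 (SE 0.18) and Dcn at 0.89 (SE 0.10). Lama1, Lama2, Lama4, Lamb2 and Lamc1 were, like this sum, highest in EC library 1 and lowest in library 2. Lama5, Lamb1 and Agrn were also lowest in library 2 but, unlike the sum, highest in library 3. Hspg2 and Nid1 differed little between the 3 libraries. Of 8 pericyte markers 2 were higher and 5 lower, with sums of 37.4 to 44.2 RPKM against 60.9 to 74.2. Whether the RNA of these markers came from stromal cells or from ECs was not tested, nor was its part in the member values.

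In kidney ECs 6 of the 10 were higher than in the kidney translatome, beside 16.7% of the 18940 rows tested, and none was lower, beside 15.0%. Lama5 led with 560, 532 and 578 RPKM against 111, 103 and 96.9, a 6.88-fold difference (log2 2.78, SE 0.10, adjusted p = 3.3e-09). Hspg2 stood at 1193, 1131 and 1246 RPKM against 289, 231 and 244 (log2 2.58, SE 0.13, adjusted p = 3.6e-08). Agrn stood at 1528, 1423 and 1578 against 359, 355 and 366 (log2 2.42, SE 0.11, adjusted p = 1.1e-08). The EC libraries of these 3 genes lay far above the organ libraries. Lama4 (2.10, SE 0.17), Nid1 (1.13, SE 0.09) and Lamc1 (0.96, SE 0.08) also passed, at adjusted p-values of 1.6e-06, 9.4e-07 and 1.2e-06.

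The remaining 4 did not pass in the kidney: Lama2 stood at 0.90 (SE 0.22, adjusted p = 0.0049), Lama1 at 0.84 (SE 0.16, adjusted p = 0.001), Lamb2 at 0.40 (SE 0.09, adjusted p = 0.0025) and Lamb1 at 0.34 (SE 0.10, adjusted p = 0.016). EC and organ libraries overlapped for Lama2, Lamb1 and Lamb2. By RPKM, EC library 2 was the lowest of the 3 for every member, not only for these 4 genes. Lama1 read 143, 86.6 and 90.1 RPKM and Lama2 17.9, 8.91 and 16.3 in libraries 1, 2 and 3. Without library 2 all 10 members passed. Lama1, whose adjusted p lay just above the threshold, also passed without library 1 or 3. In a single fit of all 21 libraries Lama1 and Lama2 passed. The sign for Lamb1 depended on the scaling, since its mean RPKM was 69.4 ± 10.3 in ECs and 70.2 ± 3.57 in the kidney, and by total counts its log2 fold change was -0.03. Scaling by total counts in place of TMM set the median of all rows at -0.30 in the brain and -0.41 in the kidney EC comparison, so RPKM ratios lie lower than the fold changes by about these amounts. The member median in the kidney was 1.05 and that of all rows -0.04. Fibroblast and stromal markers summed to 403 to 562 RPKM in kidney ECs against 833 to 1013, with 6 of 9 lower and none higher, and pericyte markers to 128 to 142 against 197 to 208, with 6 of 8 lower and 2 higher. Their part in the member values was not tested.

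Against total RNA of the whole organ, a comparison that also takes in the step from total to bound RNA, all 10 members were higher in brain ECs (26.8% of rows) and 9 in kidney ECs (22.7% of rows). The EC libraries were those of the comparisons above and the total RNA came from the same tissue samples as the translatomes, so these are not separate evidence. Hspg2 stood at 5.82 (SE 0.09) and Lama5 at 5.33 (SE 0.12) in brain, 56.4-fold and 40.3-fold above total forebrain RNA. In the kidney Lama5 stood at 5.07 (SE 0.10), Hspg2 at 4.89 (SE 0.12) and Agrn at 4.21 (SE 0.11). For Lama1 in brain the value was 4.08 against total and 2.65 against bound RNA, so the choice of reference moved it by more than for Lamb2, at 2.50 and 2.48. Lamb1 and Lamc1 moved the other way in brain, from 2.41 and 2.80 against bound to 1.99 and 2.52 against total RNA. In the kidney Lamb1 stood at -0.26 (SE 0.10, adjusted p = 0.051) against total RNA and by total counts at -0.69, which passed, while Lamb2 did not pass by total counts (0.32, adjusted p = 0.0022), which left 8 members higher. The values of both references are drawn side by side.

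**Figure D3:**
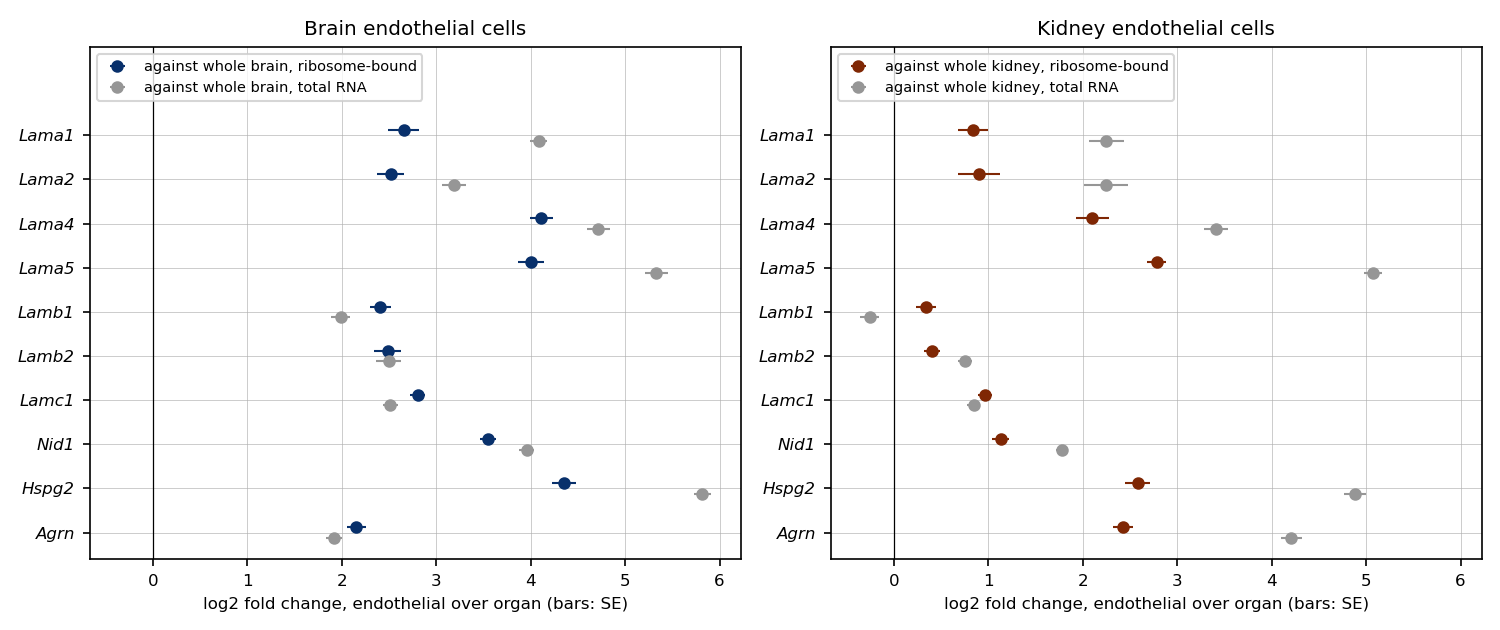
Log2 fold change of ECs over the whole organ for the 10 mRNAs in brain (left) and kidney (right), with ribosome-bound RNA (dark) or total RNA (grey) of the organ as the reference and bars for the standard error. All values in brain lie above 1.9, and Lamb1 lies nearest to 0 in kidney with either reference.

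The enrichment in ECs was larger in brain than in kidney for 9 of the 10 members, by an interaction term fitted on the 12 bound libraries, beside 16.5% of 19764 rows. It was lower in brain for 1700 of these rows. The difference was largest for Nid1, at 2.45 (SE 0.12, adjusted p = 6e-11), and smallest among the 9 for Lama5, at 1.25 (SE 0.17, adjusted p = 1.2e-05). Lamb2 (2.11), Lamb1 (2.09), Lama4 (2.04), Lamc1 (1.87), Lama1 (1.84), Hspg2 (1.80) and Lama2 (1.64) lay between. Agrn was alone in not passing, at -0.24 (SE 0.14, 95% interval -0.51 to 0.02, adjusted p = 0.17). Marker genes of several cell types differed in the same direction: all 12 endothelial markers passed with a median of 1.55, 6 of 9 fibroblast and stromal markers with a list median of 1.66 and 6 of 10 kidney epithelial markers with a list median of 1.72, none of them lower, against a median of 1.85 for the members and 0.15 for all rows. Of 8 pericyte markers 3 were higher and 2 lower. The endothelial markers also stood lower in the brain reference (155 to 177 RPKM summed) than in the kidney reference (455 to 491), and the part of these markers in the member values was not tested.

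When the ECs of the organs were set against each other, 5 members were lower in brain ECs and none higher, beside 16.9% and 20.1% of 19238 rows. Lama5 differed most, at 74.8 ± 10.0 RPKM in brain and 557 ± 23.4 in kidney ECs, which is 7.22-fold higher in the kidney (log2 -2.85, SE 0.12, adjusted p = 6.6e-09). Agrn was 3.65-fold (log2 -1.87, SE 0.10, adjusted p = 6.6e-08) and Hspg2 3.57-fold higher in kidney ECs (log2 -1.84, SE 0.09, adjusted p = 3.7e-08). Lamc1 stood at -1.14 (SE 0.09) and Lama4 at -0.91 (SE 0.14), and the libraries of the organs did not overlap for these 5. Nid1 went the other way with 187 ± 4.13 RPKM in brain and 156 ± 0.88 in kidney ECs, but at 0.31 (SE 0.07, adjusted p = 0.003) it did not pass.

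Lamb2 likewise stood at 0.73 (SE 0.14, adjusted p = 0.0011), just outside the threshold, while Lamb1 stood at -0.56 (SE 0.13, adjusted p = 0.0042), Lama1 at -0.78 (SE 0.17, adjusted p = 0.0022) and Lama2 at -0.59 (SE 0.23, adjusted p = 0.049). Same-numbered EC libraries of the organs deviated together, and with the replicate number as a block Lamb2 (0.71, adjusted p = 0.00011), Lamb1 (-0.56, adjusted p = 0.00019) and Lama1 (-0.74, adjusted p = 0.00076) passed, which made 1 member higher and 7 lower in brain ECs. Without kidney EC library 2, 8 members were lower. Fibroblast and stromal markers were higher for 3 and lower for 6 of 9 in brain against kidney ECs, and pericyte markers lower for 6 of 8. Of 10 kidney epithelial markers 8 were lower and 1 higher in brain ECs (median -4.08), and all 10 neural markers were higher (median 9.00). Their part in the member values was not tested.

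In total RNA of the forebrain 9 members were lower than in the kidney and 1 higher, beside 26.3% and 27.2% of 19841 rows. The differences ran from -3.06 (SE 0.05) for Lama5 and -2.76 (SE 0.06) for Lamc1 to -0.96 (SE 0.05) for Lamb2. Agrn alone was higher in the forebrain, at 131 to 136 against 102 to 120 RPKM (log2 0.48, SE 0.07, adjusted p = 0.00016). The call for Agrn was lost by total counts (0.29) and without brain transcriptome library 3 (0.45). All 12 endothelial markers were lower in forebrain total RNA too, with a median of -1.42 against -2.36 for the members. So were 7 of 9 fibroblast and stromal markers (median -2.41), 6 of 8 pericyte markers (median -1.41) and 10 of 10 kidney epithelial markers (median -6.05), while all 10 neural markers were higher. Their part in the member values was not tested.

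The make-up of the alpha chain mRNAs differed between the groups. As a share of the summed RPKM of Lama1, Lama2, Lama4 and Lama5, Lama5 held 56.7% ± 4.65 in kidney ECs and Lama4 31.2% ± 2.38, whereas in brain ECs Lama4 held 52.5% ± 2.50 and Lama5 24.6% ± 2.45. Lama3, left out of these sums, had a mean of 5.34 RPKM in kidney ECs and less in every other group. The lowest Lama5 share of a kidney EC library, 51.4%, lay above the highest of a brain EC library, 27.4%. Lama1 held 19.9% ± 1.30 in brain ECs and 10.7% ± 2.11 in kidney ECs. It led in the Emx1-lineage with 41.4% ± 1.16, followed there by Lama5 with 33.5% ± 1.46. In total RNA Lama4 held the largest share in both organs, with 48.6% ± 2.68 in brain and 41.0% ± 1.96 in kidney. In bound RNA of the whole organ no chain stood clear of the others. Lama4 held 37.3% ± 3.72 beside 37.6% ± 4.51 for Lama1 in brain and 32.4% ± 4.00 beside 36.8% ± 1.60 for Lama5 in kidney, and the libraries of each pair overlapped.

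**Figure D4:**
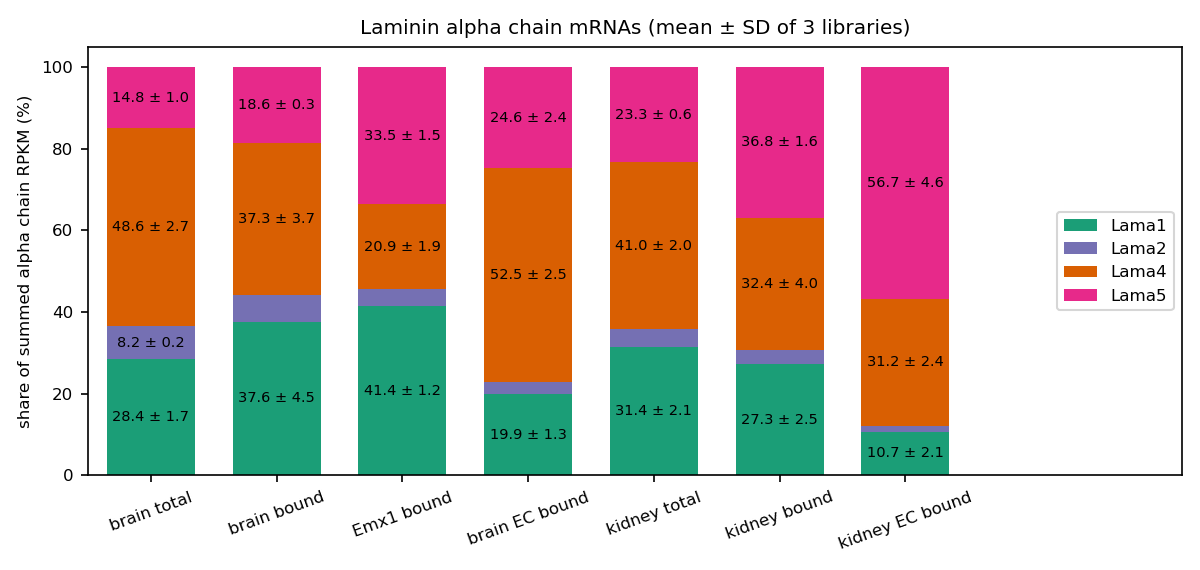
Share of each laminin alpha chain mRNA in the summed RPKM of the 4 alpha chain genes, as the mean of 3 libraries for each group, with the mean ± SD written in segments above 7%. Lama5 is the largest segment in kidney ECs and Lama4 in brain ECs.

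The balance of the beta chains separated the organs. The ratio of Lamb1 to Lamb2 RPKM was 4.45 ± 0.17 in kidney total RNA, 2.32 ± 0.22 in the kidney translatome and 2.20 ± 0.13 in kidney ECs. It was 1.29 ± 0.12 in brain total RNA, 0.97 ± 0.14 in the brain translatome, 0.92 ± 0.13 in brain ECs and 0.87 ± 0.03 in the Emx1-lineage. Every kidney library (2.08 or more) lay above every brain library (1.39 or less). The ratio in ECs overlapped with that of the organ translatome in both organs.

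In the Emx1-lineage, which the forebrain translatome also contains, 7 members were lower and 1 higher than in the whole forebrain, beside 12.8% and 9.20% of 19006 rows. Nid1 fell furthest, from 20.0, 20.6 and 18.0 RPKM in the forebrain to 2.22, 2.36 and 2.23, an 8.32-fold difference (log2 -3.06, SE 0.06, adjusted p = 1e-13). Lama4 (-1.15, SE 0.07), Lama2 (-0.98, SE 0.12), Lamc1 (-0.97, SE 0.05), Lamb1 (-0.66, SE 0.06), Lamb2 (-0.53, SE 0.08) and Agrn (-0.39, SE 0.05) were also lower, with adjusted p-values of 0.00014 or less. Hspg2, at 16.1 to 19.2 RPKM against 15.9 to 21.1, stood at -0.12 (SE 0.09, 95% interval -0.30 to 0.06, adjusted p = 0.31), and Lama1 at -0.22 (SE 0.14, 95% interval -0.49 to 0.06, adjusted p = 0.23). Lama5 was higher, at 7.22, 8.95 and 7.47 RPKM against 6.80, 5.36 and 4.93 (log2 0.51, SE 0.10, adjusted p = 0.00058).

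The call for Lama5 was lost by total counts (0.46), with a minimum of 10 reads in 3 libraries (0.50), and without brain translatome library 2 (0.47) or 3 (0.42) or Emx1 library 2 (0.42). That for Lamb2 was lost in a single fit of all 21 libraries (-0.53) and without brain translatome library 1 (-0.44). All 12 endothelial markers, all 8 pericyte markers and 8 of 9 fibroblast and stromal markers were lower in the Emx1-lineage, and the endothelial markers summed to 13.8 to 16.3 RPKM against 155 to 177. A mean of 1 RPKM was reached in the Emx1-lineage by 4 of 12 endothelial, 3 of 8 pericyte and 7 of 9 fibroblast and stromal markers. The stromal markers summed to 31.0 to 37.9 RPKM, against 124 to 143 in the forebrain translatome. The part of these markers in the levels of Hspg2, Lama1 and Lama5 in this lineage was not tested. Agrn was the most abundant member there at 81.0 ± 2.27 RPKM.

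**Figure D5:**
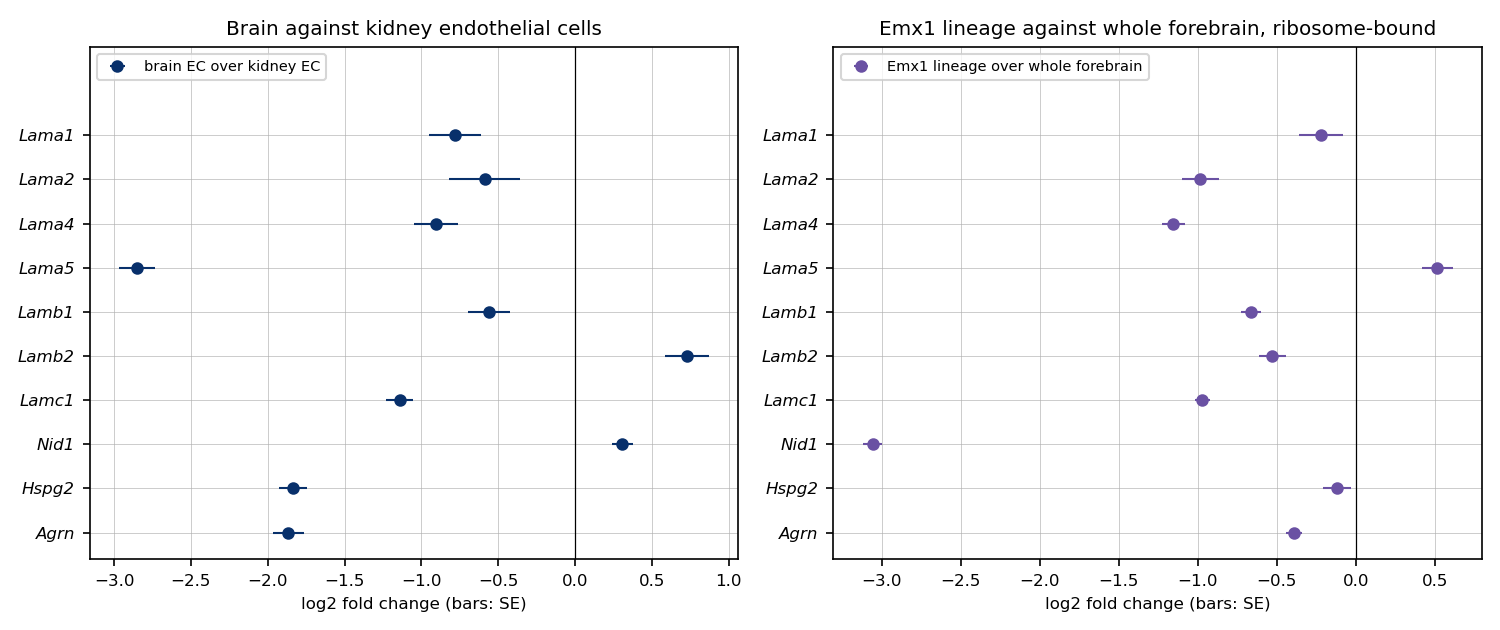
Log2 fold change with its standard error for the 10 mRNAs, brain over kidney ECs on the left and Emx1-lineage over whole forebrain, both ribosome-bound, on the right. Lama5 has the lowest value on the left (-2.85) and the highest on the right (0.51), and Nid1 the lowest on the right (-3.06).

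Most other basement membrane genes were likewise higher in brain ECs. Of 24 such genes, 18 were higher and 1 lower in brain ECs than in the forebrain translatome (median 2.30), among them Col15a1, a collagen with chondroitin sulfate chains (4.84, SE 0.20), Tinagl1 (4.23, SE 0.11), nidogen 2 (Nid2, 4.03, SE 0.12) and the laminin alpha3 chain gene Lama3 (3.83, SE 0.16). In kidney ECs 11 were higher and 3 lower (median 0.44), led by Col15a1 (2.93, SE 0.08), Lama3 (2.64, SE 0.11), Tinagl1 (2.43, SE 0.07) and hemicentin 1 (Hmcn1, 2.26, SE 0.19). Between the ECs, 14 were lower and 4 higher in brain, with Hmcn1 at -5.07 (SE 0.13) against Smoc1 at 4.05 (SE 0.19). In the Emx1-lineage 14 were lower and none higher, with Lamc3 at -3.28 (SE 0.12) and the type IV collagen genes Col4a1 at -3.18 (SE 0.08) and Col4a2 at -2.63 (SE 0.07). Of all rows, 24.8% were higher and 21.4% lower in brain ECs, and 16.7% and 15.0% in kidney ECs. Between the ECs 20.1% were higher and 16.9% lower in brain, and in the Emx1-lineage 9.20% were higher and 12.8% lower.

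In ribosome-bound against total RNA of the brain, 3 of the 24 were higher and 7 lower (median -0.10), beside 18.6% and 18.5% of all rows. Pxdn, the peroxidase that cross-links type IV collagen, stood at -1.31 (SE 0.07) and Col4a1 at -1.07 (SE 0.08). In the kidney 5 were higher and 4 lower (median 0.03), beside 14.9% and 15.8% of all rows. Hmcn1 stood there at 2.13 (SE 0.19), Nid2 at 1.76 (SE 0.15) and Lama3 at 1.31 (SE 0.12). The member medians in the same contrasts were 0.49 and 1.26. The members were chosen with values of these contrasts in view, so nothing is read from that difference. In the interaction of EC enrichment with organ, 18 of the 24 were higher in brain, beside 16.5% of all rows. There 1 was lower, beside 1700 of 19764 rows, and the median was 1.98.

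Of 16 genes for receptors of the laminins and proteoglycans 10 were higher and 1 lower in brain ECs, led by the integrin subunits Itga2 (3.52, SE 0.10) and Itga1 (3.26, SE 0.10), which bind collagen and laminin, by Bcam, a receptor for the alpha5 chain (3.38, SE 0.13), and by Itgb1 (2.27, SE 0.08). In kidney ECs 4 were higher and 6 lower, Itga2 (2.67, SE 0.11) and Itga6 (1.73, SE 0.07), a subunit of laminin receptors, against syndecan 4 (Sdc4, -2.22, SE 0.12) and glypican 1 (Gpc1, -1.33, SE 0.06). Between the ECs, 3 were higher and 6 lower in brain, with Itga1 at 2.27 (SE 0.14) and Itga6 at -1.39 (SE 0.12). In the Emx1-lineage 7 were lower and none higher, and in bound against total RNA 2 were higher and 5 lower in brain and 1 higher and 6 lower in kidney. Of all rows, 24.8% were higher and 21.4% lower in brain ECs, and 16.7% and 15.0% in kidney ECs. Between the ECs the shares were 20.1% and 16.9%, and in the Emx1-lineage 9.20% and 12.8%. In bound against total RNA they were 18.6% and 18.5% in brain and 14.9% and 15.8% in kidney. The enzymes that build the laminin-binding glycan of dystroglycan were also looked up: of 11 with a row, 1 was higher (Pomt2, 1.10, SE 0.08) and 2 lower in brain ECs, and none higher and 4 lower in kidney ECs. Their medians were -0.08 and -0.23, beside 21.4% and 15.0% of all rows lower.

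The mRNAs whose pattern over the 21 libraries was most like that of each member were looked up among 11518 mRNA rows that reached 5 RPKM in a group, by the Pearson correlation of log2(RPKM + 1). For 2 members the best match was another member, Hspg2 for Lama5 (0.989) and Lama4 for Lama2 (0.979). Lama4 lay closest to Nid2 (0.995), followed by the ETS factor gene Elk3 and by Tinagl1. Nid1 lay closest to Emp1 and to the coagulation inhibitor gene Tfpi (0.997 and 0.996), Hspg2 to Rgs19 and Mesdc1 (0.990 each), and Agrn to Lama3 (0.972) and to Kitl, the ligand of the Kit receptor (0.966). Lamc1 lay closest to Filip1l (0.997), Lamb1 to Pck2 (0.993), Lamb2 to Serpinb9 (0.982) and Lama1 to Zdhhc12 (0.983). Fbn1, the fibrillin 1 gene, was among the closest 3 of both Lama5 and Hspg2 (0.981 and 0.990). With a pseudocount of 0.1 in place of 1, 8 of the 10 closest genes were kept, and with the 7 group means in place of the libraries 2 were.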

How the data were processed

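The 21 RNA-seq samples form 7 groups of 3 replicates, with groups and numbers taken from the labels. The authors aligned the reads to GRCm38 with RUM and deposited, for each refGene row, the count of reads without normalization and the RPKM computed with rpkmforgenes; whether strand was used is not given in the sources used here. No sample and no row was left out, and the tables hold 392 rows that repeat a symbol and accession. No member overlaps another gene that has a row.

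The quasi-likelihood F test of edgeR 4.0.16 (TMM; R 4.3.3) was run on the counts of rows with at least 1 read, each of 9 comparisons on its 6 samples and an interaction on 12. The p-values were adjusted by Benjamini-Hochberg over all rows tested, with a threshold of 0.001. The SE is the absolute log2 fold change over the root of F, and 95% intervals are 1.96 SE to either side. Promoter windows came from RefSeq (GRCm38.p6; no window was matched for Lama1, Lama4 and Lamc1), gene models from GENCODE vM21. The test was also run on simulated counts with known changes, as many up as down, and the same spread for all rows. That is a simpler setting than these data, so it does not bear on false calls in them.

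The members and the gene lists (other basement membrane genes, receptors, dystroglycan glycosylation and markers of endothelial, pericyte, fibroblast and stromal, neural, kidney epithelial, and blood and macrophage cells) were chosen with earlier results of these data known. Named from a list were at most 4 genes for a comparison, those with the largest fold change past the threshold and at least 1 RPKM in a group. The number pairs transcriptome and translatome libraries, which share a tissue sample (correlation of deviations 0.49 to 0.65 in brain and 0.68 to 0.72 in kidney), and between the EC groups the deviations correlated in 3 of 3 pairs (0.17 to 0.38). Alternatives were DESeq2 1.42.0, RLE size factors, total counts, at least 10 counts in 3 samples, a threshold of 0.05, the replicate block, a single fit of 21 samples, RPKM ratios and each replicate left out in turn. A comparison within the shared sequencing run was added after the data were seen. p-values measure the spread between pooled tissue samples.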

Additional observations from a re-analysis of the deposited data

Results flagged for a closer look

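The enrichment in ECs differed between brain and kidney, by an interaction term over all rows, for 9 members: Nid1 (2.45), Lamb2 (2.11), Lamb1 (2.09), Lama4 (2.04), Lamc1 (1.87), Lama1 (1.84), Hspg2 (1.80), Lama2 (1.64) and Lama5 (1.25), each on the log2 scale and larger in brain. All 12 endothelial markers passed in the same direction, with a median of 1.55, and so did 6 of 9 fibroblast and stromal and 6 of 10 kidney epithelial markers. The call for Lama2 was lost without brain translatome library 1 (1.74) or 3 (1.51), brain EC library 1 (1.51) or kidney translatome library 1 (1.53).

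The ribosome association of Agrn pointed in opposite directions, with every bound library below every total RNA library in brain (log2 fold change -0.25) and above in kidney (1.71). The difference itself was not tested.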

How the results depend on the processing

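Of 1480 member values under the alternatives, 1372 counted as unchanged, 48 came to pass the threshold and 18 no longer did. No called value changed sign. A value that passed in neither fit counted as unchanged even where its sign differed, as for Lamb1 in kidney ECs by total counts. RPKM ratios and values within the shared sequencing run were set against the spread between replicates, not against the threshold. By that measure 42 RPKM ratios moved by more than the spread, and the 20 values within the shared run stayed within it. At a threshold of 0.05 the rows called were 10855 in brain and 9754 in kidney for bound against total RNA, 10509 for kidney ECs against the translatome and 12277 against total RNA, 11469 between the ECs, 8580 for the Emx1-lineage and 8522 for the interaction.

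Member counts moved as follows. In bound against total brain RNA, 4 were higher in the single fit and 5 without brain translatome replicate 1, and 3 were lower at 0.05 and with DESeq2. In kidney, 8 were higher and 2 lower at 0.05 and with DESeq2. In kidney ECs against the translatome, 10 were higher at 0.05, 8 in the single fit and 7 with DESeq2, and 6 to 10 with a replicate left out (10 without kidney EC replicate 2). Against kidney total RNA, 8 were higher and 1 (Lamb1) lower by total counts. Between the ECs, 2 were higher in brain at 0.05, with DESeq2 and in the single fit, 1 by RLE and by total counts, and 0 to 1 with a replicate left out. In the same comparison 8 were lower at 0.05, 7 with DESeq2, 6 by total counts and in the single fit, and 5 to 8 with a replicate left out. In the Emx1-lineage, 0 were higher by total counts and with at least 10 counts, and 0 to 1 with a replicate left out. There 6 were lower in the single fit and without brain translatome replicate 1, as Lamb2 lost its call. Between the total RNAs, 0 were higher in brain by total counts and 0 to 1 with a replicate left out. The cause was not tested.

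With the replicate block for the pairing, 3 members were lower in bound against total brain RNA (Agrn added), 8 higher and 2 lower in kidney (Lamb2 and Lamc1 added), where 9496 rows passed against 5929 without it and the prior degrees of freedom were infinite, and 1 was higher and 7 lower between the ECs (Lamb2, Lama1 and Lamb1 added). In comparisons whose samples share only a number, the block left 0 members higher in the Emx1-lineage (Lama5, 0.52) and passed Lama1 (0.80) and Lamb2 (0.40) in kidney ECs against the translatome. Beside the calls named here, the block changed no call of a member. Single calls under 1 replicate left out rest on the assumption that a remaining pair varies like the other group. Depth did not limit the members, each with at least 272 reads in every library; 3 libraries a group limit small differences.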
